A study of Mus musculus with 6 samples.

Results

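The 10 genes examined here break down the branched-chain amino acids leucine, isoleucine and valine, or control this breakdown, and they were followed in heart muscle cells of mice given α-ketoglutarate (AKG). The members were the rows of the deposited table whose symbol was Bcat1, Bcat2, Bckdha, Bckdhb, Dbt, Bckdk, Ppm1k, Ivd, Mccc1 or Hibadh. All 10 were found among 22063 genes, and all 10 passed the filter on low counts. The study measured RNA in 6 libraries. The 3 Control libraries came from wild-type (WT) mice injected with PBS, and the 3 AKG libraries from WT mice injected with AKG at 300 mg per kg per day, each daily for 2 weeks. Per the labels' protocols the mice were at postnatal day 21, without saying whether at the first injection or at isolation, and the cardiomyocytes were taken from the heart by Langendorff's method, in which enzyme is perfused through the coronary vessels. How many mice went into a library is not in the labels, so p-values measure only the spread between these libraries.

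Breakdown of these amino acids starts with a transaminase that moves the amino group to 2-oxoglutarate, which is AKG itself, and yields glutamate and a branched-chain keto acid. BCAT2 does this in mitochondria and BCAT1 in the cytosol. The mitochondrial branched-chain keto acid dehydrogenase complex then removes the carboxyl group in the step that commits the carbon to oxidation. A kinase, BCKDK, switches the complex off by phosphorylating its decarboxylase, and a phosphatase, PPM1K, switches it on. Separate enzymes then carry each keto acid product to acetyl-CoA, acetoacetate or propionyl-CoA. The heart oxidises these keto acids as a minor fuel, and the pathway is known for its lower activity in failing hearts.

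Of the 10 genes 6 fell after AKG, Ppm1k rose, and Bcat1, Dbt and Bckdk did not pass the test. These calls are relative to the bulk of genes and come from edgeR's quasi-likelihood test on counts scaled with TMM factors (a trimmed mean of log ratios between libraries), with Benjamini-Hochberg adjustment over all 13117 tested genes and a threshold of 0.05. Over all of them 25.2% were lower and 25% higher (50.2% in either direction), beside 6 and 1 of the 10 members. The median log2 fold change was -0.54 for the members and 0.00 for all genes tested. The 3 AKG values lay wholly apart from the 3 Control values for 8 members, 6 below and 2 above, where 59.2% of all tested genes were apart, 29.9% below and 29.4% above. Levels are given as CPM, counts scaled to the size of the library, here TMM-adjusted. The scaling bears on most of these calls, and 3 members kept theirs with total counts as scaling (Ppm1k, Ivd and Hibadh). On total-count scaling the median of all genes moved to 0.45, where 56.7% of genes were higher and 9.12% lower. On that scale Bcat1, Dbt, Bckdk and Ppm1k were higher, Hibadh and Ivd were lower, and the other 4 members did not pass. No member changed the sign of its fold change between these scalings.

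**Figure D1:**
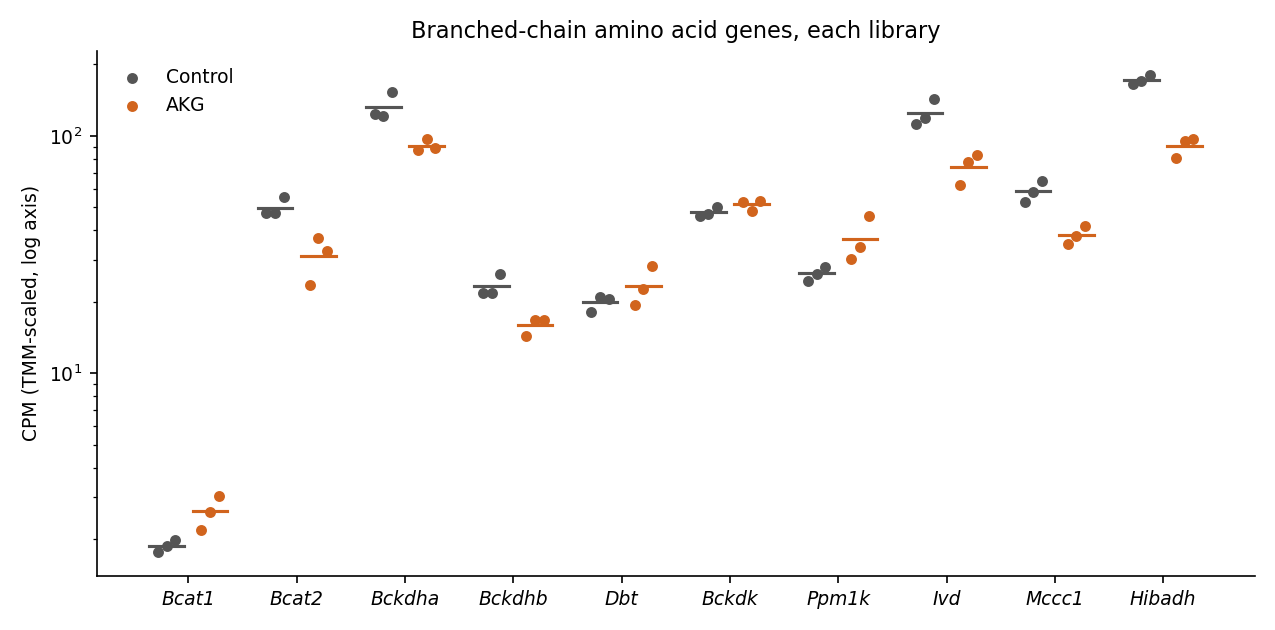
Level of each gene in each library, in CPM scaled by TMM (log axis), with 1 point per library and a line at the mean of each group of 3. The AKG points lie below the Control points for Bcat2, Bckdha, Bckdhb, Ivd, Mccc1 and Hibadh, above them for Bcat1 and Ppm1k, and among them for Dbt and Bckdk.

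The cells carried the label of cardiomyocytes, and markers of heart muscle were measured in every library. The 10 cardiomyocyte markers examined, among them Myh6, Tnnt2 and Actc1, summed to 69830 to 75269 CPM in Control and 34523 to 37546 CPM after AKG, and 9 of them fell. Totals per library were 14402876 to 17797368 counts. Other cell types were present in all libraries: 10 endothelial markers summed to 2706 to 2977 CPM in Control and 2384 to 2926 CPM after AKG, 10 fibroblast markers to 2954 to 3767 and 2927 to 3903 CPM, 10 smooth muscle and pericyte markers to 2131 to 2326 and 1083 to 1286 CPM, and 10 macrophage markers to 143 to 219 and 92.5 to 121 CPM. Neutrophil markers (8) summed to 1.33 to 2.17 CPM in Control and 6.46 to 15.1 CPM after AKG, and 4 of 5 tested rose. Lymphocyte markers (10) summed to 6.92 to 11.1 and 2.27 to 3.15 CPM, all 3 tested fell, and the lymphocyte marker Nkg7 was at 0 in all Control libraries. On the TMM scale all tested genes summed to 1104899 to 1201298 CPM in Control and 819614 to 894222 CPM after AKG. On total-count scaling 6 cardiomyocyte markers were lower and 1 higher. Endothelial markers had 1 lower and 6 higher there, and fibroblast markers 2 and 4. Smooth muscle and pericyte markers had 3 and 2, and macrophage markers 3 and 1. All 5 tested neutrophil markers were higher there and all 3 tested lymphocyte markers lower. The part of these cell types in the values below was not tested, and in bulk RNA fewer cells of a type and less RNA per cell cannot be told apart. Atrial markers (6) summed to 92.1 to 151 CPM in Control and 461 to 940 CPM after AKG, and those other than Nppa were high in AKG 1 and AKG 3 alone: Myl7 stood at 138 and 88.0 CPM there, and at 1.12 CPM in AKG 2. With AKG 2 as the only treated library, assumed to vary as the Controls do, again 6 members were lower and 1 was higher.

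The transaminases differed in level and in direction. Bcat2, the mitochondrial enzyme, stood at 47.2, 47.3 and 55.0 CPM in Control 1, 2 and 3 and at 23.5, 37.0 and 32.6 CPM in AKG 1, 2 and 3. All AKG values were lower than all Control values, and AKG 1 was the lowest. The log2 fold change was -0.68 (SE 0.15, adjusted p = 0.00397 by edgeR), and -0.24 on total-count scaling, where it did not pass (adjusted p = 0.143). Bcat1, the cytosolic enzyme, was near the low end of what was measured, at 26 to 30 counts per Control library and 39 to 55 per AKG library. In CPM it stood at 1.77, 1.86 and 1.99 in Control and at 2.19, 2.61 and 3.05 after AKG. The groups did not overlap, but the log2 fold change of 0.48 (SE 0.259) did not pass (adjusted p = 0.138 by edgeR). It passed on total-count scaling, at 0.93 (adjusted p = 0.00791).

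The balance between the pair can be read within a library, where no scaling between libraries enters. Bcat1 made up 3.61, 3.79 and 3.49% of the summed counts of Bcat1 and Bcat2 in Control 1, 2 and 3. After AKG its share was 8.53, 6.58 and 8.57%, above every Control. The means were 3.63 ± 0.151% and 7.89 ± 1.14% (SD, n = 3 each), with an exact two-sided permutation p of 0.1, the smallest that 3 libraries against 3 can give. Counts are not scaled to transcript length, so this is a share of counts and not of molecules. Bcat2 remained the main transaminase transcript of the pair in every library. This was 1 of 10 ratios examined within libraries, 2 of them planned, and 6 of the 10 had groups that did not overlap. The Benjamini-Hochberg adjusted p of each of these 6 over the 10 was 0.167 by exact permutation. Several of the 10 ratios share the counts of Bckdha, so they are not independent.

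Within the dehydrogenase complex the decarboxylase subunits fell together and the core subunit did not. Bckdha encodes the alpha subunit of the decarboxylase, which carries the site that the kinase phosphorylates. It stood at 123, 121 and 154 CPM in Control and 87.2, 96.8 and 88.8 CPM after AKG. The log2 fold change was -0.54 (SE 0.0943, adjusted p = 0.000335 by edgeR), a 1.46-fold fall. Control 3 was the highest of all libraries, and no AKG library reached any Control. Bckdhb encodes the beta subunit. Its levels of 21.7, 21.7 and 26.2 CPM in Control and 14.3, 16.8 and 16.7 CPM after AKG gave a log2 fold change of -0.54 as well (SE 0.113, adjusted p = 0.00132 by edgeR). On total-count scaling both subunits stood at -0.10, and neither passed (adjusted p = 0.37 and 0.506).

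Dbt encodes the transacylase around which the complex is built. It was measured at 18.2, 20.99 and 20.5 CPM in Control and at 19.4, 22.6 and 28.2 CPM after AKG. The groups overlapped, since AKG 1 lay below Control 2 and Control 3, and the log2 fold change of 0.24 (SE 0.13) did not pass (adjusted p = 0.149 by edgeR). On total-count scaling it was 0.68 and passed (adjusted p = 0.00113 by edgeR). With TMM its size depended on single libraries: it was 0.36 without AKG replicate 1, where it passed (adjusted p = 0.0246), and 0.083 without AKG replicate 3 (adjusted p = 0.568). Dld, the dihydrolipoamide dehydrogenase that this complex shares with the pyruvate and 2-oxoglutarate dehydrogenases, fell from 235 ± 8.54 to 153 ± 20.5 CPM (log2 fold change -0.62). On total-count scaling Dld stood at -0.18 and did not pass (adjusted p = 0.164 by edgeR).

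Ratios within libraries gave the same order without a scaling, but they restate the same counts and are not further evidence. There were 0.176, 0.179 and 0.171 Bckdhb counts per Bckdha count in Control and 0.164, 0.173 and 0.188 after AKG. The means were both 0.175, the groups overlapped, and the exact two-sided permutation p was 1. Dbt counts per Bckdha count were 0.147, 0.173 and 0.133 in Control and 0.223, 0.233 and 0.317 after AKG (p = 0.1 by exact permutation, two-sided). Every AKG library therefore held more Dbt relative to Bckdha than every Control, by 0.76 on the log2 scale on average, while the ratio of the decarboxylase subunits differed by less than the spread between libraries.

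**Figure D2:**
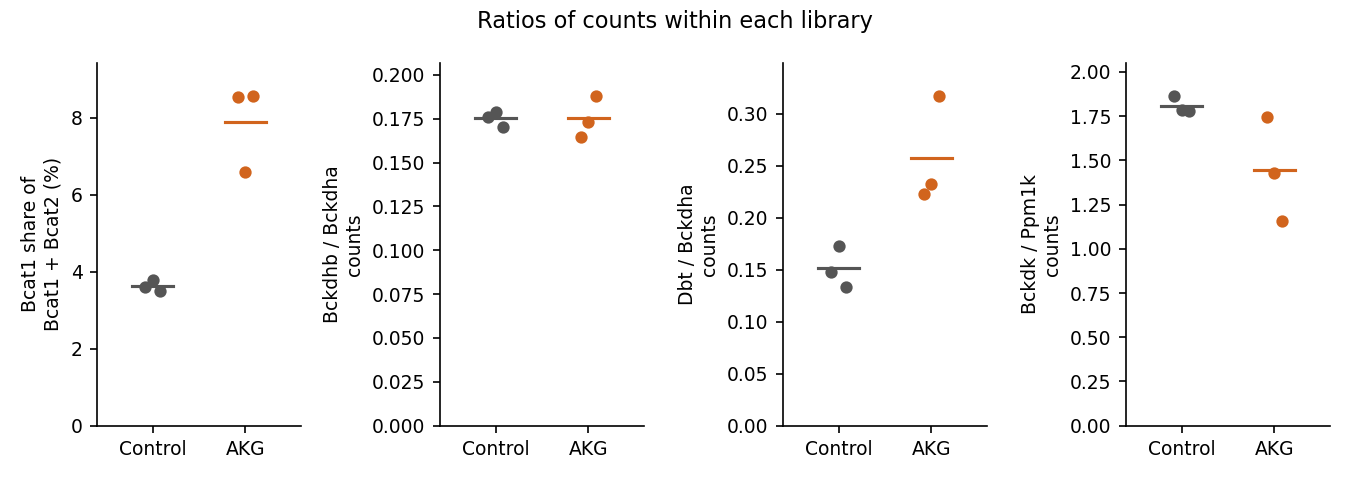
Ratios of counts within each library, with 1 point per library and a line at the mean of each group of 3; every axis starts at 0. The AKG points lie above the Control points for the Bcat1 share and for Dbt per Bckdha, among them for Bckdhb per Bckdha, and below them for Bckdk per Ppm1k.

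Of the regulators of the complex the phosphatase rose and the kinase did not pass. Bckdk, the kinase that turns it off, stood at 45.8, 46.9 and 49.98 CPM in Control and 52.6, 48.5 and 53.3 CPM after AKG. AKG 2 lay below Control 3, and the log2 fold change of 0.11 (SE 0.0777) did not pass (adjusted p = 0.237 by edgeR). On total-count scaling it was 0.56 and passed (adjusted p = 0.000135). Ppm1k, the phosphatase that turns the complex on, stood at 24.6, 26.3 and 28.1 CPM in Control and at 30.2, 33.9 and 46.1 CPM after AKG. No values overlapped, and AKG 3 was well above the other two. The rise was 1.4-fold (log2 fold change 0.48, SE 0.143, adjusted p = 0.0162 by edgeR). It did not pass without Control replicate 1 (adjusted p = 0.0669) or without Control replicate 2 (adjusted p = 0.0579). Without AKG replicate 3 it passed at a smaller log2 fold change of 0.29 (adjusted p = 0.0256).

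Kinase and phosphatase act on the same site, so their ratio was examined within each library. Bckdk counts per Ppm1k count were 1.86, 1.78 and 1.78 in Control and 1.74, 1.43 and 1.16 after AKG. The AKG values were all lower and far more spread, and AKG 1 lay close to the Controls. The means were 1.81 ± 0.0481 and 1.44 ± 0.293 (SD, n = 3 each; p = 0.1 by exact permutation, two-sided). Relative to Bckdha both regulators were higher in every AKG library: Bckdk from 0.361 ± 0.0322 to 0.568 ± 0.0585 counts per Bckdha count and Ppm1k from 0.2 ± 0.0169 to 0.405 ± 0.0982 (exact two-sided permutation p = 0.1 for each, n = 3 a group).

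Ppm1k and Bckdhb, the member that rose and a subunit of the complex that fell, are shown with the bases before their start sites so that the promoters of genes that moved in opposite directions can be compared. The sequences are RefSeq's for GRCm38.p6, at chr6:57535488-57535737 on the minus strand for Ppm1k and chr9:83924887-83925136 on the plus strand for Bckdhb, and the 250 bases before the start are written 5′ to 3′ (for Bckdhb 1 of 2 RefSeq starts, the one with GC boxes) with each GC box (GGGCGG on either strand) in capitals.
Ppm1k: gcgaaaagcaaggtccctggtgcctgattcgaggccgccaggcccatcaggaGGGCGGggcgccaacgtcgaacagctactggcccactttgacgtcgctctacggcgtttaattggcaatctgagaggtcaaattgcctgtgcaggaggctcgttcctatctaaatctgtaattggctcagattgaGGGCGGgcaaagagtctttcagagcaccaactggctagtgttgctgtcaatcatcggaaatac
Bckdhb: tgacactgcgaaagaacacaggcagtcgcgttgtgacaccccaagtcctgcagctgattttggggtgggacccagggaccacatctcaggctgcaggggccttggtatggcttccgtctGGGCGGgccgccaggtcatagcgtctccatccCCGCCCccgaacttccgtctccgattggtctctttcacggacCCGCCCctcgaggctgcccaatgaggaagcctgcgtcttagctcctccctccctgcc
Ppm1k held 2 GC boxes here and Bckdhb 3, so the letters occur before a gene that rose and before one that fell. Of 12 windows for 9 members, 4 held a GC box (Bckdhb, Hibadh, Mccc1 and Ppm1k), beside 32.7% of all 32851 RefSeq windows of this length. This motif was picked after values were seen. The motifs AAGGTCA of estrogen-related receptors, the palindromic motif of NRF1 and CCGGAAGT of GABP and other ETS factors, searched on both strands, were in 0 of the 12 windows, beside 4.08%, 0.782% and 2.88% of all windows. A match is only a run of letters, and its absence says nothing of the factor.

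The 3 enzymes that follow on single branches fell. Ivd encodes isovaleryl-CoA dehydrogenase of the leucine branch. It stood at 112, 119 and 143 CPM in Control and at 61.8, 77.5 and 82.8 CPM after AKG, with no overlap. The log2 fold change was -0.75 (SE 0.119, adjusted p = 0.00039 by edgeR), and -0.31 on total-count scaling (adjusted p = 0.042).

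Mccc1 encodes the biotin-carrying subunit of methylcrotonyl-CoA carboxylase, the next step for leucine. Its values were 52.5, 58.0 and 64.3 CPM in Control and 35.2, 37.8 and 41.7 CPM after AKG, again apart. It fell 1.52-fold (log2 fold change -0.61, SE 0.094, adjusted p = 0.000131 by edgeR), and did not pass on total-count scaling (-0.16, adjusted p = 0.214). Mccc2, the partner subunit, fell by 0.53 on the log2 scale. There were 2.25 ± 0.0496 Mccc1 counts per Mccc2 count in Control and 2.15 ± 0.144 after AKG, a difference within the spread (exact two-sided permutation p = 0.4, n = 3 a group).

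Hibadh encodes 3-hydroxyisobutyrate dehydrogenase of the valine branch, whose substrate can leave the cell. It had the largest fall of the 10, from 165, 170 and 181 CPM in Control to 80.9, 95.1 and 96.9 CPM after AKG. The highest AKG library was far below the lowest Control. The fall was 1.89-fold (log2 fold change -0.92, SE 0.0844, adjusted p = 1.46e-06 by edgeR). It was the only member to pass as lower under every scaling, filter, tool and left-out library tried, and stood at -0.47 on total-count scaling (adjusted p = 0.000494).

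**Figure D3:**
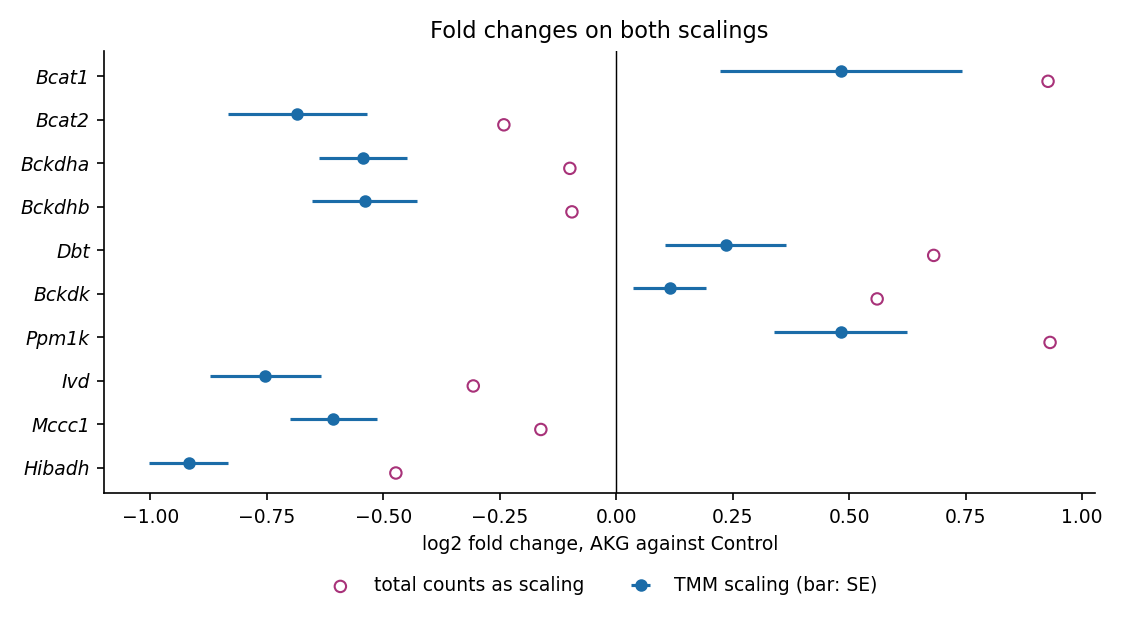
Log2 fold change of AKG against Control for each gene, with filled points and SE bars for counts scaled by TMM and open points for total-count scaling. The open points lie to the right of the filled points, by about the shift of all genes, and no gene crosses 0.

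Levels of different genes can be compared only per length, for which the authors' deposited FPKM values were used (fragments relative to the length of the transcript and the size of the library). In Control the order from the top was Hibadh (80.7 ± 4.86 FPKM), Bckdha (59.8 ± 7.07), Ivd (29.2 ± 3.51), Bcat2 (24.3 ± 1.65), Mccc1 (20.05 ± 2.24), Bckdk (17.2 ± 1.63), Bckdhb (13.6 ± 1.34), Dbt (5.69 ± 1.08), Ppm1k (4.77 ± 0.802) and Bcat1 (0.491 ± 0.174). The library values of neighbours overlapped for Ivd and Bcat2, for Mccc1 and Bckdk, and for Dbt and Ppm1k. The order of the genes was the same in all 3 Control libraries. After AKG, Bckdk moved from the sixth place to places 3, 5 and 3, at 26.4 ± 3.65 FPKM, beside 23.6 ± 3.97 for Ivd, 20.6 ± 4.29 for Bcat2 and 18.1 ± 2.21 for Mccc1. FPKM leave in a shift between the groups, so these values do not show a rise of Bckdk. With TMM its log2 fold change of 0.11 did not pass (adjusted p = 0.237 by edgeR). Hibadh and Bckdha came within each other's range, at 58.2 ± 6.63 and 55.8 ± 2.12 FPKM. Bcat1 was last in all 6 libraries.

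In each group the same library was the lowest for most members. AKG 1 was the lowest AKG library for 9 of the 10 members with either scaling, beside 33.5% of all tested genes with TMM and 31.8% with total counts. Control 1 was the lowest Control for 8 members with TMM and for 10 with total counts, beside 34.4% and 46.0% of all tested genes. Control 3 was the highest Control for 9 members with TMM and for 5 with total counts, beside 36.1% and 22.4% of all tested genes. AKG 3 was the highest AKG library for 7 members with TMM and 9 with total counts, beside 35.3% and 51.1%. Without AKG replicate 1 there were again 6 lower members, and 2 higher.

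Most of the rest of the pathway was lower too. Of 11 genes of the later steps, 8 fell and 2 rose, with a median log2 fold change of -0.44, beside 0.00 for all tested genes. Over all tested genes 25.2% were lower and 25% higher, the shares to set beside the counts of this and the following lists. Acad8, the isobutyryl-CoA dehydrogenase of the valine branch, fell from 29.8 ± 2.04 to 19.3 ± 1.69 CPM, the hydratase gene Auh of the leucine branch from 49.0 ± 2.71 to 35.1 ± 2.35 CPM, the valine branch hydrolase gene Hibch by 0.47 and the thiolase gene Acat1 by 0.46 on the log2 scale. The exceptions were Aldh6a1, the methylmalonate semialdehyde dehydrogenase that acts directly after HIBADH, which rose from 79.8 ± 10.6 to 116 ± 15.4 CPM, and Acadsb, the short/branched-chain acyl-CoA dehydrogenase of the isoleucine branch, which rose from 52.8 ± 2.76 to 65.3 ± 6.95 CPM. The rise of Acadsb did not pass without Control replicate 1 (adjusted p = 0.056 by edgeR). Neighbouring steps of valine breakdown thus moved in opposite directions, Hibadh down and Aldh6a1 up, on either scaling. The list of later steps, which does not hold Hibadh, had 3 higher and 0 lower genes on total-count scaling (median 0.01). None of the falls named from that list therefore passed there.

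Propionyl-CoA from isoleucine and valine is carried on to succinyl-CoA by a biotin and a cobalamin enzyme. Of 6 genes on this route 5 fell and 0 rose. Mmaa, which serves the cobalamin cofactor, fell from 25.5 ± 1.22 to 12.7 ± 0.995 CPM and the epimerase gene Mcee from 45.3 ± 5.76 to 25.1 ± 2.89 CPM. Pcca, the biotin-carrying subunit of propionyl-CoA carboxylase, fell by 0.80 and the mutase gene Mmut by 0.46 on the log2 scale. Pccb, the other carboxylase subunit, stood at 55.9 ± 2.72 and 53.4 ± 3.74 CPM and did not pass (log2 fold change -0.06, adjusted p = 0.527 by edgeR). It was higher on total-count scaling, at 0.38 (adjusted p = 0.00426), where 2 genes of the route were lower and neither Pcca nor Mmut passed.

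Of 6 tested transporter genes for these amino acids 0 fell and 1 rose. Slc7a5, the light chain of the plasma membrane exchanger for large neutral amino acids, rose from 5.37 ± 0.728 to 8.14 ± 0.875 CPM. Slc25a44, the carrier for branched-chain amino acids in the inner mitochondrial membrane, stood at 15.6 ± 1.45 and 17.97 ± 1.19 CPM (log2 fold change 0.21, adjusted p = 0.135 by edgeR). On total-count scaling each of the 6 passed as higher.

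The sister complexes of the branched-chain dehydrogenase fell as well. Beside 25.2% of all tested genes, 8 of 9 genes of the pyruvate, 2-oxoglutarate and 2-oxoadipate dehydrogenases fell, with a median of -0.93. Total-count scaling left 6 of them lower, with a median of -0.49, and neither Dld nor Pdha1 passed. Ogdh, the 2-oxoglutarate decarboxylase, fell from 991 ± 53.1 to 461 ± 75.6 CPM. Counts of Bckdha per Ogdh count were 0.131, 0.123 and 0.147 in Control and 0.226, 0.211 and 0.165 after AKG, with no overlap (p = 0.1 by exact permutation, two-sided, n = 3 a group). Counts of Bckdha per Pdha1 count, the pyruvate decarboxylase alpha subunit, overlapped between the groups (0.227 ± 0.0268 and 0.196 ± 0.0221, exact two-sided permutation p = 0.2, n = 3 a group).

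The core subunits of the sister complexes fell, beside a log2 fold change of 0.24 for Dbt that did not pass. Dlat of pyruvate dehydrogenase fell from 279 ± 14.8 to 136 ± 24.1 CPM and Dlst of 2-oxoglutarate dehydrogenase from 360 ± 8.43 to 218 ± 29.3 CPM. Only Dhtkd1, the 2-oxoadipate decarboxylase of lysine breakdown, rose in this list (log2 fold change 0.68). Of 7 kinases and phosphatases of pyruvate dehydrogenase, 4 rose and 1 fell. The kinase gene Pdk1 rose from 59.3 ± 4.56 to 125 ± 6.44 CPM and Pdk3 from 5.26 ± 1.35 to 16.1 ± 2.17 CPM, beside a log2 fold change of 0.11 for Bckdk that did not pass. Of the phosphatases Pdp1 rose by 0.67 on the log2 scale and Pdp2 fell from 12.3 ± 2.09 to 4.03 ± 1.001 CPM. These signs were the same on total-count scaling.

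Other transaminases with 2-oxoglutarate as a substrate or a product moved both ways. Of 9 tested, 5 fell and 2 rose (median -0.66). The aspartate transaminase genes Got2 (mitochondrial) and Got1 (cytosolic) fell from 724 ± 34.2 to 457 ± 43.2 CPM and from 300 ± 26.7 to 155 ± 43.1 CPM, and the alanine transaminase genes Gpt and Gpt2 and the ornithine transaminase gene Oat by 1.54, 0.84 and 0.73 on the log2 scale. Psat1, which makes phosphoserine, rose from 5.21 ± 1.14 to 9.52 ± 1.76 CPM and the GABA transaminase gene Abat from 5.35 ± 0.439 to 7.91 ± 1.01 CPM. The call of Abat was lost without Control replicate 1 (adjusted p = 0.05005 by edgeR) and with AKG 2 as the only treated library (adjusted p = 0.0558). Bcat2 counts per Got2 count overlapped between the groups, at 0.0688 ± 0.00364 and 0.0674 ± 0.011 (exact two-sided permutation p = 0.9, n = 3 a group). On total-count scaling 3 of the 9 were lower and 2 higher, and neither Got1 nor Got2 passed.

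**Figure D4:**
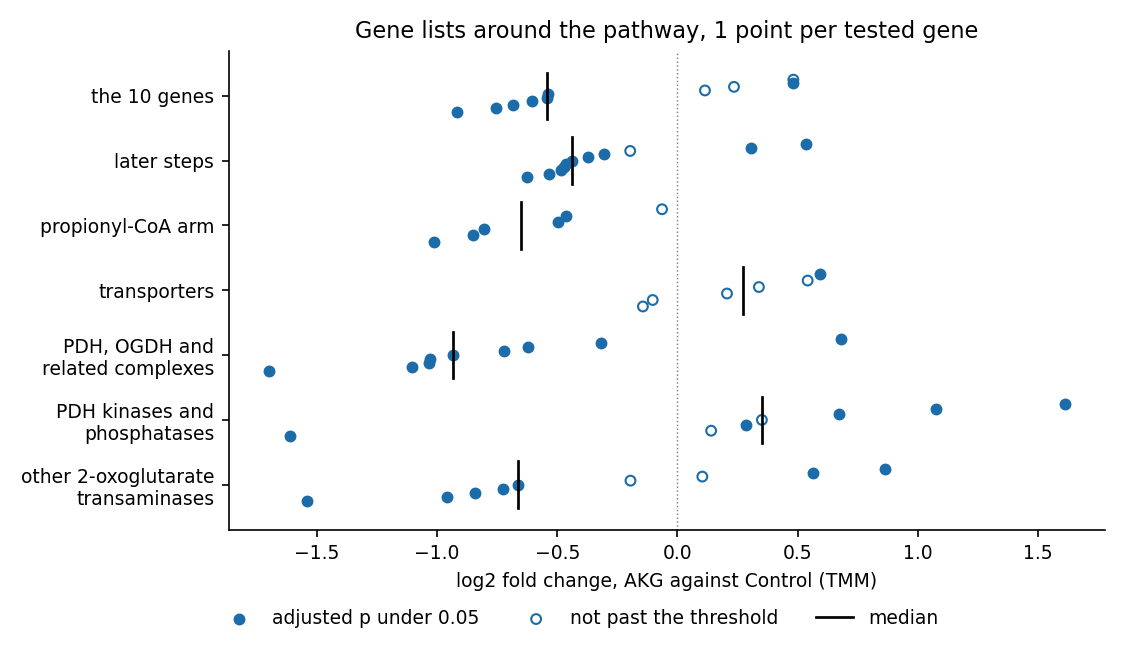
Log2 fold change of AKG against Control (TMM scaling) for each tested gene of the 10 genes and of 6 lists around them, with filled points past an adjusted p of 0.05, open points not past it and a black line at each list's median. The medians of the 10 genes, the later steps, the propionyl-CoA route, the sister complexes and the other transaminases lie below 0, and those of the transporters and of the pyruvate dehydrogenase kinases and phosphatases above it.

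Regulators linked to the pathway moved both ways. Klf15, a transcription factor known to raise genes of branched-chain amino acid breakdown in heart muscle, stood at 11.9, 12.4 and 20.2 CPM in Control and 21.1, 31.2 and 39.95 CPM after AKG. The groups did not overlap and were widely spread, and the log2 fold change was 1.06 (SE 0.325, adjusted p = 0.0434 by edgeR). The call was lost without Control replicate 1 or 2 (adjusted p = 0.113 and 0.123), without AKG replicate 2 or 3 (0.105 and 0.0904) and with no filter on low counts (0.0834). Ppargc1a, a coactivator of mitochondrial genes, rose from 88.5 ± 10.4 to 160 ± 13.9 CPM, and the gene of its partner receptor Esrra fell from 94.9 ± 1.48 to 62.5 ± 0.744 CPM. The rises of Klf15 and Ppargc1a passed on total-count scaling too, and Esrra did not (log2 fold change -0.16, adjusted p = 0.124 by edgeR).

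Antisense or overlapping transcripts may limit some values, since the sources used here do not say whether strand was used in counting. Their effect on the values was not tested. In GENCODE M21, 5 of the members share exonic bases with another gene. For Bckdha 1171 of 1899 exonic bases also belong to B3gnt8 on the opposite strand, a gene with 223 counts over all 6 libraries. The overlapping genes of Bcat1, Bcat2, Hibadh and Mccc1 covered at most 622 bases each and were absent from the authors' deposited table.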

How the data were processed

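RNA was measured in 6 libraries. The authors' deposited table covers 22063 genes and holds, for each library, estimated counts and FPKM, beside the authors' log2 fold change of mean FPKM. Deposited false discovery rates and p-values are also held. They do not follow that fold change and were not taken as tests of it. Per the submitters' processing notes HISAT2 2.1.0, RSEM 1.2.19 and DESeq2 1.20.0 were used; which did what, and against which genome and annotation, is not given in the sources used here. The deposited counts were whole numbers and were used as they stood. Rows with no symbol (30) stayed in the fit and were not named.

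Groups and replicate numbers came from the sample titles. Counts were tested in R 4.3.3 with edgeR 4.0.16 (quasi-likelihood, robust), after filterByExpr (minimum count 10, minimum total 15), over 13117 genes. The script was tested on simulated data. CPM are per TMM-scaled library total, and an SE is the size of the log2 fold change over the square root of F. Totals of 14402876 to 17797368 counts put a floor of 3 counts at 0.166 to 0.221 CPM. FPKM and total counts leave in a shift between the groups: the authors' deposited log2 fold changes lay above those computed here by 0.44 in the median. Ratios within libraries were tested by exact two-sided permutation.

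Alternatives were other scalings, filters and dispersion settings, DESeq2 1.42.0, limma 3.58.1 (voom, and log2 FPKM plus 1 or 0.1 where at least 3 libraries reached FPKM 1), a replicate block, each library left out, AKG 2 alone, and no mitochondrially encoded genes. Named were all members, and Dld, Slc25a44 and Klf15 whatever they did. Other companion genes came from the up to 8 of smallest p in each list, and not all of those were named. Echs1, Hadh, Pdhb, Pdhx and Mmab, which fell with TMM, were among those left out. Of these, Echs1 and Hadh stood at 0.01 and 0.07 on total-count scaling and did not pass there. Acadsb and Pdha1 were added after their values were seen. Members and lists were chosen with earlier results of these data known. RefSeq promoter windows were matched by symbol (9 of 10 members).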

Additional observations from a re-analysis of the deposited data

How the results depend on the processing

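Without a scaling factor (total counts) 7431 genes were higher and 1196 lower over the table, with 4 members higher and 2 lower. Limma on log2(FPKM + 1) gave 6722 and 1075 genes, and on log2(FPKM + 0.1) 6709 and 1070, with 4 members higher and 1 lower in each; by construction neither corrects for the shift of the bulk of genes. Pccb changed sign in these 3 settings, at 0.38, 0.37 and 0.38 in this order, and Pdha1 did too, from -0.32 to 0.13, 0.12 and 0.12, where it did not pass. Leaving out 1 library gave 0 to 2 higher members (0 without Control replicate 1 or 2, 2 without AKG replicate 1) and 6 lower members each time. The other scalings, filters, tools and dispersion settings, AKG 2 alone and the table without mitochondrially encoded genes left 6 members lower and 1 higher. With the replicate block 3257 genes were higher and 3314 lower, and again 6 members lower and 1 higher, so it changed no member's call. Same-numbered libraries correlated over all tested genes in their deviations from the group means at 0.16, -0.03 and 0.05, so the numbers were not taken as pairs, and not every library correlated best with its own number. Among the 10 members, however, Control 1 and AKG 1 were the lowest of their groups for 8 and 9 with TMM, and Control 3 and AKG 3 the highest for 9 and 7. Depth limits Bcat1 most, at 26 to 55 counts per library.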

Other observations

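The authors' deposited table gave a larger difference for Bcat1 than its counts did. Its deposited FPKM were 0.34, 0.681 and 0.453 in Control 1, 2 and 3 and 1.96, 1.04 and 1.29 in AKG 1, 2 and 3. The deposited log2 fold change was 1.54, beside 0.48 from counts scaled by TMM and 0.93 from counts over library totals. The deposited false discovery rate was 0.323, which cannot be taken as a test of that fold change, since these rates do not follow the deposited fold changes. The length that links count to FPKM, taken as the CPM on library totals over the FPKM, was 4.33, 2.48 and 3.67 kb in Control and 1.302, 2.81 and 2.88 kb after AKG for Bcat1. For Hibadh it was 1.82 or 1.83 kb, for Ivd 3.66 or 3.67 kb and for Bckdha 1.90 kb in each of the 6 libraries. Among the other members it varied most for Dbt, from 2.54 kb in Control 3 to 3.301 kb, and for Ppm1k, from 4.197 kb in Control 2 to 5.42 kb in AKG 1. The cause was not tested.

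The deposited annotation places 57 genes in a term for valine, leucine and isoleucine degradation, 8 of the 10 members among them (all but Bckdk and Ppm1k). Of its 49 other genes 37 were tested, and 21 of them fell and 6 rose, beside 25.2% and 25% of all tested genes. The median log2 fold change of the 37 was -0.37, beside -0.54 for the 10 members and 0.00 for all tested genes. On total-count scaling 2 of the 37 were lower and 14 higher (median 0.07), beside 9.12% and 56.7% of all tested genes.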
